A study of Mus musculus with 34 samples.

Results

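Protocadherins, a family of cell adhesion genes, were examined in RNA sequencing libraries of murine SCLC (small cell lung cancer, a tumor of neuroendocrine character). Cells or mice had received bomedemstat (BOM), which blocks LSD1, the histone demethylase that Kdm1a encodes. Members were all protein-coding genes whose symbol starts with Pcdh in the 3 deposited tables of counts. The rule gave the same 68 genes in each table, of 28432 genes in the 96 h table, 30351 in the 10 d table and 29745 in the tumor table. Of these, 14 were Pcdha genes (2 gene identifiers carry the name Pcdha11), 22 were Pcdhb genes, 20 were Pcdhg genes and 12 were non-clustered. The 34 libraries came from cultured cells and from flank tumors in immunocompetent mice. For the 96 h comparison BOM or DMSO was given to the lines RP-116, RP-48 and G8545, with 1 library of each treatment per line. At 10 d the line RP-48OVA-LLO190 was given BOM and interferon gamma (IFNg; 2 libraries), DMSO and IFNg (3), BOM (2) or DMSO (3), with IFNg present for the last 48 h. Flank tumors of RP-48OVA-LLO190 were collected at 16 d from mice given BOM plus anti-PD1 antibody (4 tumors), anti-PD1 (5), BOM (4) or vehicle (5). All 10 d cultures and all tumors were therefore of 1 line, and nothing in the labels says whether replicates were separate cultures or animals, so p-values cover no more than sample-to-sample spread, possibly technical.

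Protocadherins are cadherin-superfamily proteins that bind like copies of themselves across cell contacts and are most abundant in the nervous system. In the clustered family, many variable exons, each with a promoter, lie in tandem. In the alpha and gamma clusters each variable exon is spliced to constant exons that encode a shared cytoplasmic tail, whereas beta genes have a single coding exon and no constant tail. Neurons choose among most of these promoters at random, with CTCF, cohesin and DNA methylation taking part in the choice, and the C-type genes (Pcdhac1, Pcdhac2, Pcdhgc3, Pcdhgc4 and Pcdhgc5) are expressed more uniformly. The non-clustered protocadherins, most but not all of them of the delta type, are separate genes with their own tails. Several delta protocadherins recruit actin regulators, and the delta type is known for roles in axon growth, synapses and cell sorting in the embryo.

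The promoter sequences of Pcdh19, Pcdh18, Pcdh8 and Pcdh7 are given because these 4 non-clustered genes had the largest fold changes with BOM at 10 d; they were chosen after their values were seen. Each is the 250 bases before the RefSeq start of the gene in GRCm38.p6, 5′ to 3′ on the strand of the gene, with CG dinucleotides, the targets of DNA methylation, in capitals. The Pcdh19 window is chrX:133688994-133689243 on the minus strand, with 16 CG dinucleotides. The Pcdh18 window is chr3:49757317-49757566 on the minus strand, with 23. The Pcdh8 window is chr14:79771313-79771562 on the minus strand, with 11, and the Pcdh7 window is chr5:57717831-57718080 on the plus strand, with 7. In the GENCODE M21 annotation Pcdh7 starts at 57717967 and Pcdh18, on the minus strand, at 49757325, each inside its window. Part of both windows thus lies within the gene in that annotation.
Pcdh19: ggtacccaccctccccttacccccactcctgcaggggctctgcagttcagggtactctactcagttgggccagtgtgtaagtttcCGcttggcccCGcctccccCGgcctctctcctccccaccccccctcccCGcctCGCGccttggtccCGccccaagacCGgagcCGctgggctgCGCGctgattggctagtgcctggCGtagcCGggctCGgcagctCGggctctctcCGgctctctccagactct
Pcdh18: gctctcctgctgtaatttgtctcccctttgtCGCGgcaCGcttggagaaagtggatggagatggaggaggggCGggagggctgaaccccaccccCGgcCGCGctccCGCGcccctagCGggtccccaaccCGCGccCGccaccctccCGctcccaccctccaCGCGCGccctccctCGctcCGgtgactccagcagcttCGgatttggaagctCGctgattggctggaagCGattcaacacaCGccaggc
Pcdh8: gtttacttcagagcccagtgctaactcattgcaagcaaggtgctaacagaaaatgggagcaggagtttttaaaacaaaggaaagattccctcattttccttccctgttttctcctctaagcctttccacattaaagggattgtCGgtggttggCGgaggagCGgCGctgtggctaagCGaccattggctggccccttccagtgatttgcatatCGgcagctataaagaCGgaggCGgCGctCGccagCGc
Pcdh7: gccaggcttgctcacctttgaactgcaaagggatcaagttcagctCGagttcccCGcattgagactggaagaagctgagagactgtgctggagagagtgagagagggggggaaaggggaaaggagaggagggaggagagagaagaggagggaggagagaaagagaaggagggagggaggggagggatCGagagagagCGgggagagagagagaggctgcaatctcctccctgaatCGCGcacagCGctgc

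Among 32851 RefSeq promoters of the same length the median was 6 CG dinucleotides and 52.4% GC. As many CG dinucleotides as in Pcdh18 were held by 13.3% of these promoters, as many as in Pcdh19 by 25.4%, as many as in Pcdh8 by 35.6% and as many as in Pcdh7 by 46.3%. GC content was 69.2% in the Pcdh19 window, 68% in Pcdh18, 51.2% in Pcdh8 and 58.4% in Pcdh7. The E-box CAGCTG and the RBPJ core TGGGAA, searched on both strands, were in none of these 4 windows and in 13% and 21.6% of all promoters. Of the 12 non-clustered genes, Pcdh1 and Pcdh12, on chromosome 18, were left out of the search, and no entry was matched for Pcdh11x. Of the remaining 9, Pcdh10 alone held 1 of the motifs, TGGGAA.

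In the GENCODE M21 annotation of GRCm38, the build of the counts, all 56 clustered genes lie on chromosome 18, the alpha genes between 36930184 and 37187661, the beta genes between 37264938 and 37524479 and the gamma genes between 37661793 and 37841873. The non-clustered genes are dispersed over other chromosomes, except Pcdh1 and Pcdh12 on chromosome 18. Because of the shared constant exons, a median of 46.4% of the exonic length of an alpha gene and 54.85% of that of a gamma gene was its own, and counts of single alpha and gamma genes are uncertain for that reason. The median was 100% for a beta gene (lowest 36.5%, in Pcdhb12), and the share was at least 78.9% for a non-clustered gene. Beta genes are close paralogs, and how reads that match several of them were counted is not given in the sources used here.

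Total counts per library were 8712025 to 9968681 at 96 h, 5896627 to 9044398 at 10 d and 5638353 to 82205546 in tumors. Levels are given as CPM, that is counts scaled to library sizes corrected by TMM factors, and a gene was called changed at an adjusted p under 0.05 (edgeR quasi-likelihood test, Benjamini-Hochberg over all genes tested). Vehicle tumor 1, with 82205546 counts, and vehicle tumor 2, with 13150056, stood apart from the other vehicle tumors. They differed in depth, and in several genes that changed with BOM they lay nearer to the BOM tumors. Counts of calls and fold changes against vehicle are given with and without both, an alternative chosen after seeing the data. Leaving out the controls nearest to the treated tumors widens such differences, so fold changes and p-values without them are descriptions and no independent support. At 10 d, where total RNA was sequenced, the noncoding RNA gene Gm26917 took 8.36% to 9.85% of counts in libraries with BOM and 11.7% to 15.8% in those with DMSO; its part in the results was not tested. In 10 d cultures without IFNg, the neuroendocrine genes of SCLC summed to 3680 to 4180 CPM with BOM and 3510 to 3950 CPM with DMSO. Single genes of this list did change: of 14, 5 rose and 1 fell (42.9% called, against 20.3% of all genes). With IFNg, 4 rose and 3 fell with BOM (50%, against 23.1%). Kdm1a itself, whose protein is inhibited and not deleted, was at 171 and 176 CPM with BOM and 206, 207 and 219 CPM with DMSO.

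Per kilobase of full exonic length, shared exons included, the gene with the highest mean level was a non-clustered one in every table. Pcdh10, a delta protocadherin that recruits a WAVE-complex subunit to cell contacts, averaged 11.7 CPM per kb over the 96 h libraries, with a range of 1.31 to 22.1. Pcdh1, a delta protocadherin of airway and other epithelia, averaged 16.2 CPM per kb at 10 d (12.8 to 21.1), and Pcdh19, an X-linked delta protocadherin whose human counterpart is mutated in a form of epilepsy, averaged 7.92 CPM per kb in tumors (3.49 to 12). Among clustered genes Pcdhb5 had the highest mean level on this scale in each table, at 7.86 CPM per kb at 96 h (1.41 to 13.4), 12 at 10 d (9.71 to 15.9) and 7.18 in tumors (5.32 to 9.86). In each table its range overlapped that of the highest non-clustered gene, so the order of the families is a description. The means also pool treatments, and in tumors Pcdh19 was lower and Pcdhb5 higher with BOM. The 96 h mean covers lines that differed: Pcdhb5 was the highest clustered gene in RP-48, but Pcdhb9 was in G8545 (16.4 CPM per kb with BOM, 11.3 with DMSO) and Pcdhb17 in RP-116 (3.79 with BOM, 4.59 with DMSO), where Pcdhb5 was at 1.92 CPM per kb with BOM and 1.41 with DMSO. Pcdhgc3, a C-type gene, was among the 5 highest clustered genes in all 3 tables, at 4.85, 9.81 and 2.85 CPM per kb. Only 33.1% of its exonic length was its own, against 100% for Pcdhb5. Its order against Pcdhb5 and the non-clustered genes therefore depends on how shared exons are treated, as do the ranks of other alpha and gamma genes. At 96 h Pcdhb9 (5.85 CPM per kb), Pcdhb16 (4.65) and Pcdhb17 (4.09) were the other clustered genes of that rank. At 10 d they were Pcdhb16 (10.1 CPM per kb), Pcdhb6 (8.85) and Pcdhb10 (8.81), and in tumors Pcdhb17 (2.64), Pcdhb20 (2.5) and Pcdhb6 (2.19). On the full-length scale, the range of Pcdhb5 in tumors (5.32 to 9.86 CPM per kb) lay above that of Pcdhgc3 (1.59 to 4.34). The range of Pcdh10 (3.59 to 5.51) lay above that of the next non-clustered gene, Pcdh17 (1.57 to 3.01). The ranges of the other neighbours among the 5 highest clustered or non-clustered genes of each table overlapped, so their orders are descriptions. Tables differ in RNA selection, cells and depth, and levels were not compared across them.

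The question at 10 d was which genes differ after prolonged exposure of RP-48OVA-LLO190 to BOM. Non-clustered protocadherins moved in both directions: Pcdh18, Pcdh8, Pcdh7, Pcdh17 and Pcdh1 rose, and Pcdh19 and Pcdh10 fell. Of 65 members tested, 8 rose and 10 fell, where 12.1% of all 15230 genes tested rose, 8.25% fell and 20.3% were called in either direction. By family, 7 of 10 non-clustered genes tested were called, against 11 of 55 clustered genes. Pcdh12, Pcdh20 and Pcdha1 did not pass the filter on low counts.

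Pcdh19 was at 37.9 and 34.8 CPM in the BOM libraries and 164, 137 and 144 CPM in the DMSO libraries. Both BOM libraries lay far below every DMSO library, and the log2 fold change was -2.03 ± 0.13 (SE; adjusted p = 6.75e-09). It was the member with the lowest p at 10 d. Pcdh10 fell less, at 154 and 173 CPM with BOM against 209, 219 and 223 CPM with DMSO (log2 fold change -0.41, adjusted p = 0.00263). The groups did not overlap for either gene.

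Pcdh18, a delta protocadherin that binds the adaptor Dab1 in mice, was at 18.9 and 20.4 CPM with BOM and 4.72, 4.02 and 5.79 CPM with DMSO. Its log2 fold change of 2.02 ± 0.26 (adjusted p = 2.08e-05) was the largest rise of any member. Pcdh8, known as arcadlin in rat neurons, where it is induced by synaptic activity, was at 26.8 and 27.6 CPM with BOM and 8.47, 9.05 and 9.30 CPM with DMSO. The increase was 1.61 ± 0.16 on the log2 scale (adjusted p = 1.21e-06), and the replicates within each group lay within a narrow range. Pcdh7, whose tail binds the phosphatase PP1 alpha, was at 61.8 and 51.8 CPM with BOM and 26.4, 26.5 and 24.8 CPM with DMSO (log2 fold change 1.14, adjusted p = 2.73e-05). Pcdh17, which recruits actin regulators to contacts between axons, was at 56.4 and 64.6 CPM with BOM and 29.6, 30.2 and 31.4 CPM with DMSO, a difference of 1.0 on the log2 scale (adjusted p = 2.6e-05). Both BOM libraries were above all DMSO libraries for all 4 risers; groups of this size separate upward in 24.9% and downward in 23.6% of all genes tested. Pcdh1 rose less, with 147 and 168 CPM with BOM and 121, 125 and 112 CPM with DMSO (log2 fold change 0.40, adjusted p = 0.00306). Pcdh9 was at 15.3 and 12.6 CPM with BOM and 17.4, 24.5 and 26.3 CPM with DMSO and was not called (adjusted p = 0.0591).

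Genes of the fibroblast marker list also moved at 10 d: 5 of the 6 tested rose (83.3% called, against 20.3% of all genes). The list summed to 57 to 66.1 CPM with BOM and 17.8 to 22.5 CPM with DMSO. The endothelial list summed to 39.8 to 54.7 CPM with BOM and 23.5 to 24.5 CPM with DMSO, although its genes Cdh5 and Cldn5 were at 0 in both BOM libraries. The immune list summed to 6.66 to 9.01 CPM with BOM and 6.25 to 12.7 CPM with DMSO. The part of these lists in the protocadherin differences was not tested. Scaling by library size alone turned the split of all genes from 1837 higher and 1257 lower into 2208 higher and 909 lower, and the protocadherin split into 8 higher and 9 lower.

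**Figure D1:**
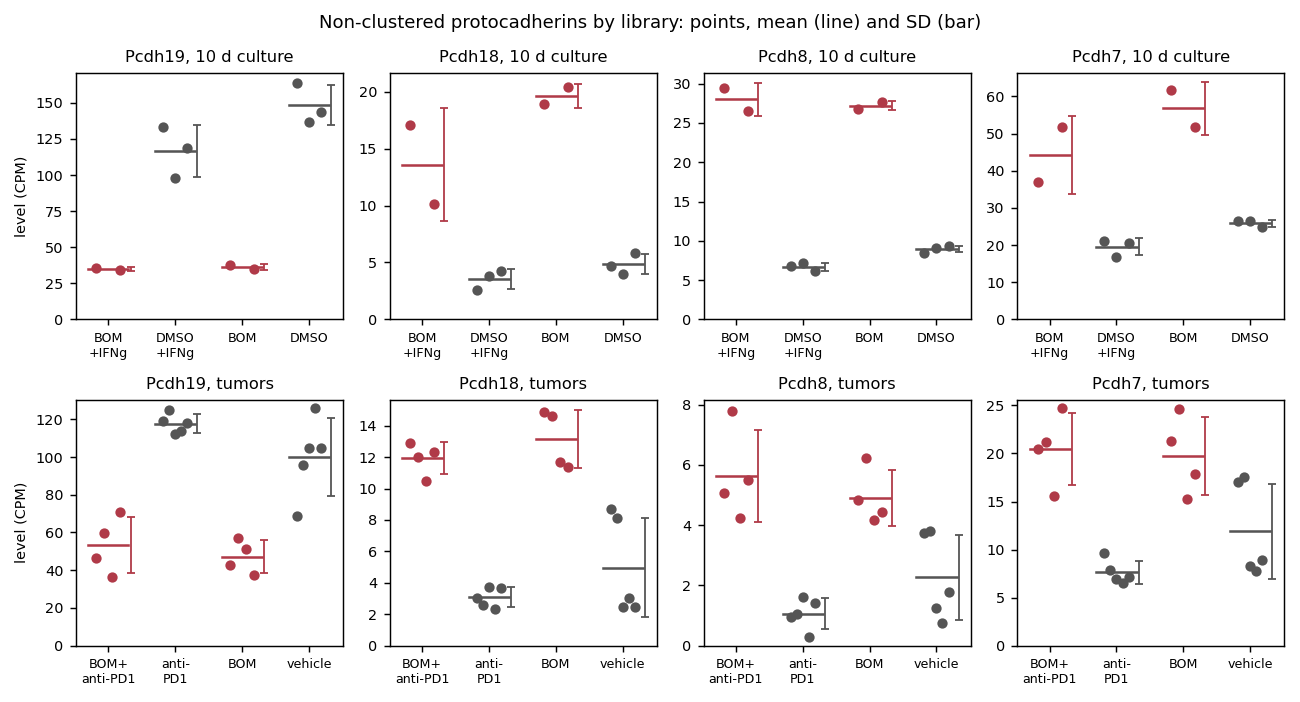
Levels in CPM (vertical axis) of Pcdh19, Pcdh18, Pcdh8 and Pcdh7 in each library of the 10 d cultures (upper row) and tumors (lower row). Points are libraries, red with BOM and grey without, the line is the group mean and the bar its SD; in the 10 d cultures without IFNg, Pcdh19 was at 37.9 and 34.8 CPM with BOM and at 137 to 164 CPM with DMSO.

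The clustered families differed at 10 d. Alpha genes were mostly lower with BOM: 12 of 13 tested had a fold change below 0, with a median of -0.66 on the log2 scale against -0.0142 over all genes, and 5 fell. The 22 beta genes had a median of 0.05, and 2 rose. The 20 gamma genes had a median of 0.01, with 3 called, all of them C-type genes that fell. Since alpha genes share their constant exons, they are not independent of each other.

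Pcdha2, Pcdha3, Pcdha5, Pcdha6 and Pcdha7 fell by 0.73, 0.85, 0.96, 1.12 and 0.78 on the log2 scale. Pcdha2 was at 32.5 and 30.9 CPM with BOM and 51, 53.3 and 54.4 CPM with DMSO (adjusted p = 0.000427). The groups were well apart and the replicates close for this gene. For Pcdha3, levels were 13.6 and 12.3 CPM with BOM and 19.2, 22.6 and 28.8 CPM with DMSO (adjusted p = 0.00754), a wider spread. The summed alpha counts were 179 and 150 CPM with BOM and 198, 241 and 273 CPM with DMSO. The C-type gene Pcdhac2 was the exception in the alpha cluster and rose, at 22.1 and 18.6 CPM with BOM against 13.9, 13.4 and 12.3 CPM with DMSO (log2 fold change 0.63, adjusted p = 0.0123).

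In the gamma cluster Pcdhgc4, which in mice is needed for the survival of many neurons, was at 34.1 and 33.9 CPM with BOM and 44.7, 49.4 and 59.2 CPM with DMSO (log2 fold change -0.58, adjusted p = 0.0043). Pcdhgc3 was at 46.8 and 50.0 CPM with BOM and 61.0, 61.2 and 67.9 CPM with DMSO (adjusted p = 0.0159). Pcdhgc5 was at 18 and 16.8 CPM with BOM and 23.3, 26.8 and 30.0 CPM with DMSO (adjusted p = 0.0148). All 3 C-type gamma genes were thus lower in both BOM libraries than in any DMSO library, while no A- or B-type gamma gene was called. In the beta cluster Pcdhb1 was at 6.04 and 4.81 CPM with BOM and 2.78, 2.18 and 2.81 CPM with DMSO (log2 fold change 1.06, adjusted p = 0.0233). Pcdhb9 was at 33.6 and 28.2 CPM with BOM and 21.5, 22.8 and 20.5 CPM with DMSO (log2 fold change 0.52, adjusted p = 0.0318). Pcdhb5, the highest clustered gene per kilobase of full exonic length, was not called (adjusted p = 0.108). It was at 46.2 and 47.6 CPM with BOM and 34.3, 39.2 and 39.5 CPM with DMSO.

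Pcdh19, Pcdh18, Pcdh8, Pcdh7, Pcdh17, Pcdha2 and Pcdhgc4 were called under every alternative tried, and the other 11 members lost their call under at least 1. Leaving out a BOM library leaves 1 in that group, which is then assumed to vary like the libraries of the other groups. Without BOM replicate 2, 11 members were called and Pcdh1, Pcdha3, Pcdha5, Pcdha6, Pcdha7, Pcdhgc3 and Pcdhgc5 were not (adjusted p 0.0633 to 0.201). Without BOM replicate 1, Pcdh10, Pcdha7, Pcdhac2, Pcdhb1, Pcdhb9, Pcdhgc3 and Pcdhgc5 were not called (0.0702 to 0.252).

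**Figure D2:**
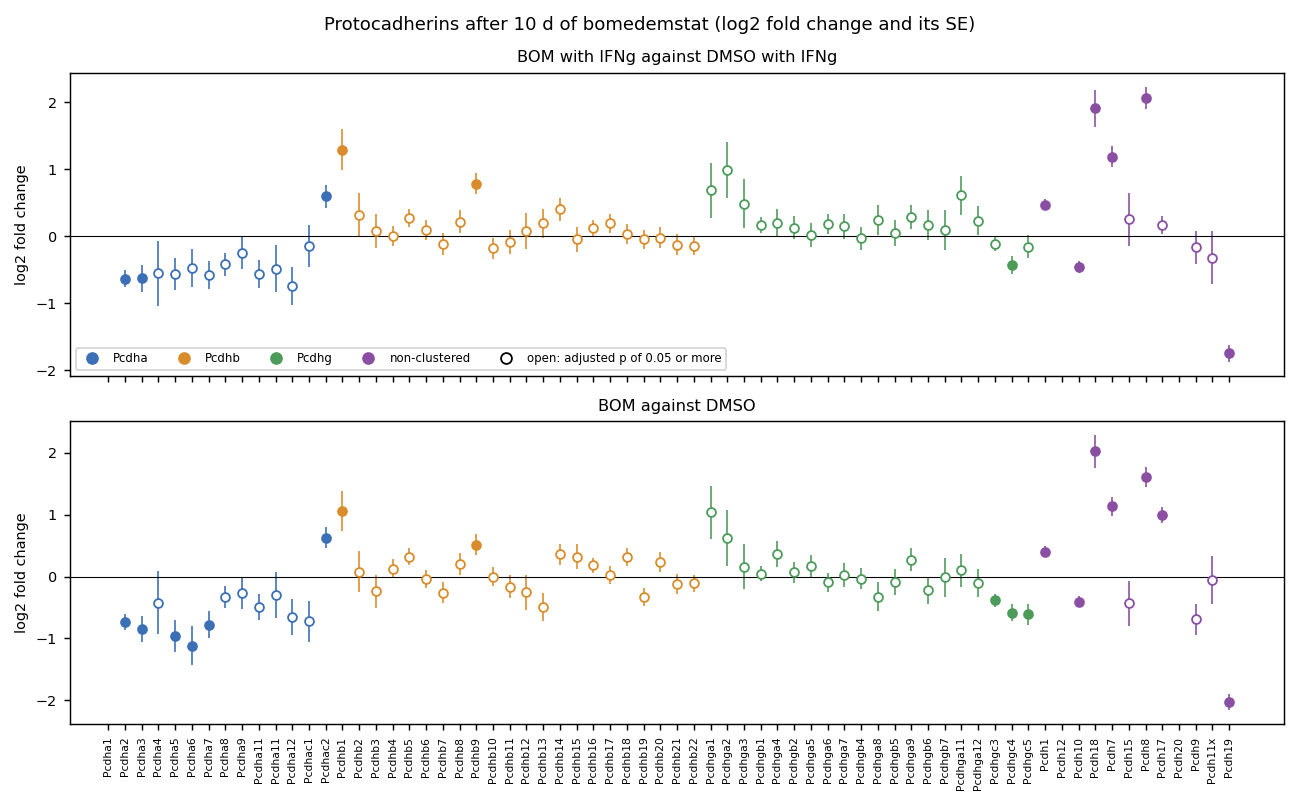
Log2 fold change of BOM over DMSO with its SE (vertical axis) for every tested protocadherin at 10 d, with IFNg in the upper panel and without it in the lower one; filled points passed the test. Most alpha genes lie below 0 in both panels, and Pcdh19 lies lowest, at -1.75 with IFNg and -2.03 without.

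With IFNg present, Pcdh8, Pcdh18, Pcdh7 and Pcdh1 rose with BOM and Pcdh19 and Pcdh10 fell, 6 of the 10 non-clustered genes tested. Of 65 members tested, 7 rose and 5 fell, where 13% of all genes rose, 10.1% fell and 23.1% were called. All 12 were also called in the same direction without IFNg, in libraries that the comparisons did not share. They made up 87.5% of the 8 members that rose and 50% of the 10 that fell without IFNg. Both comparisons took their spread from the same fit of all groups. The overlap of calls over all genes was not computed, so this overlap is not shown to be particular to protocadherins.

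Pcdh19 was at 35.7 and 34.0 CPM with BOM and IFNg and 133, 97.8 and 119 CPM with DMSO and IFNg (log2 fold change -1.75, adjusted p = 3.17e-08). Pcdh8 was at 29.5 and 26.5 CPM with BOM and IFNg and 6.74, 7.12 and 6.11 CPM with DMSO and IFNg (2.06, adjusted p = 7.33e-08). Pcdh18 was at 17.1 and 10.1 CPM with BOM and IFNg and 2.61, 3.80 and 4.29 CPM with DMSO and IFNg (1.91, adjusted p = 6.33e-05). Its libraries with BOM and IFNg differed from each other more than those of the other genes but lay above all with DMSO and IFNg. Pcdh7 was at 36.9 and 51.7 CPM with BOM and IFNg and 21.0, 16.9 and 20.6 CPM with DMSO and IFNg (1.19, adjusted p = 1.92e-05). Pcdh1 rose by 0.47 on the log2 scale, with 174 and 186 CPM with BOM and IFNg and 130, 127 and 132 CPM with DMSO and IFNg (adjusted p = 0.000637). Pcdh10 had 136 and 147 CPM with BOM and IFNg and 187, 192 and 205 CPM with DMSO and IFNg, and fell by 0.46 (adjusted p = 0.000869). In none of these 6 genes did the groups overlap, as in 24.2% of all genes upward and 23.7% downward. Pcdh17, which rose without IFNg, was not called with it, at 43.0 and 38.2 CPM with BOM and IFNg and 30.5, 36.7 and 41.3 CPM with DMSO and IFNg (0.17, adjusted p = 0.418). Pcdh15, called in neither comparison, had estimates of 0.25 with IFNg and -0.43 without.

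Among clustered genes with IFNg, Pcdhb1 (6.67 and 6.86 CPM with BOM and IFNg, 2.91, 2.53 and 2.81 CPM with DMSO and IFNg) rose by 1.29 on the log2 scale. Pcdhb9 was at 43.5 and 29.8 CPM with BOM and IFNg and 21.8, 19.5 and 22 CPM with DMSO and IFNg (0.79, adjusted p = 0.00144). Pcdhac2 also rose, at 16.9 and 16.0 CPM with BOM and IFNg against 10.3, 10.9 and 11.4 CPM with DMSO and IFNg (0.60, adjusted p = 0.0169). Pcdha2 was at 41.6 and 32.6 CPM with BOM and IFNg and 62.7, 53.9 and 54.7 CPM with DMSO and IFNg (-0.63, adjusted p = 0.00111), and Pcdha3 (-0.63, adjusted p = 0.0348) and Pcdhgc4 (-0.42, adjusted p = 0.0286) fell as well. Alpha genes had a median of -0.55 with 12 of 13 below 0, while 16 of 20 gamma genes were above 0 with a median of 0.17. Pcdhb9, Pcdhac2, Pcdha3 and Pcdhgc4 lost their call under at least 1 alternative.

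IFNg, a cytokine that induces antigen presentation genes, was set against no IFNg within each drug group. In BOM cultures 1 of 65 members was called, where 2.06% of all genes were (1.73% higher, 0.328% lower). Pcdh17 was at 43.0 and 38.2 CPM with BOM and IFNg and 56.4 and 64.6 CPM with BOM, a log2 fold change of -0.58 (adjusted p = 0.0399). In DMSO cultures it was at 30.5, 36.7 and 41.3 CPM with IFNg and 29.6, 30.2 and 31.4 CPM without. Its call in BOM cultures was lost on leaving out any 1 of the 4 BOM libraries, DMSO replicate 2 or DMSO replicate 3 (adjusted p 0.0528 to 0.428). In DMSO cultures 0 members were called by edgeR and 0 by DESeq2, with 8 at an unadjusted p under 0.05 and 2.27% of all genes called. With the replicate number as a block, Pcdh19 was called in DMSO cultures, at -0.35 on the log2 scale (adjusted p = 0.0181, against 0.121 without the block). The interaction of BOM and IFNg called 0 members by either tool, with 2 at an unadjusted p under 0.05 and 0% of all genes called. The interaction estimate of Pcdh17 was -0.83 (adjusted p = 0.346).

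The tumor comparisons asked which genes differ with BOM in mice, alone and together with anti-PD1, an antibody against an inhibitory T cell receptor. Of 68 members, 40 passed the filter on low counts: 5 alpha, 20 beta, 7 gamma and 8 non-clustered genes. With BOM compared with vehicle, Pcdh18, Pcdh1, Pcdhgb1, Pcdhb21 and Pcdhb5 rose and Pcdh19 fell, where 5.9% of all genes rose, 8.63% fell and 14.5% were called. In bulk tumors, fewer cells of a type and less RNA per cell cannot be told apart.

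Pcdh19 was at 42.9, 57.2, 51.1 and 37.5 CPM in BOM tumors and 69.0, 95.6, 105, 126 and 105 CPM in vehicle tumors. Every BOM tumor was below every vehicle tumor, and the log2 fold change was -1.08 ± 0.18 (SE; adjusted p = 0.00129). Pcdh18 was at 14.9, 14.6, 11.7 and 11.4 CPM in BOM tumors and 8.72, 8.13, 2.47, 3.05 and 2.47 CPM in vehicle tumors (log2 fold change 1.32, adjusted p = 0.00986). The 2 highest vehicle values were those of vehicle tumors 1 and 2. Pcdh1 rose by 0.36 on the log2 scale (adjusted p = 0.0293), with 56.1, 67.7, 53.7 and 52.8 CPM in BOM tumors and 49.5, 50.9, 35.5, 43.8 and 43.5 CPM in vehicle tumors.

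Pcdhgb1 was at 6.29, 7.71, 5.64 and 8.08 CPM in BOM tumors and 4.53, 4.18, 1.94, 1.83 and 2.74 CPM in vehicle tumors (log2 fold change 1.12, adjusted p = 0.0134). Pcdhb21 was at 6.82, 8.20, 6.31 and 7.20 CPM in BOM tumors and 4.95, 5.93, 4.77, 3.35 and 3.02 CPM in vehicle tumors (0.68, adjusted p = 0.045). Pcdhb5 rose by 0.38 (adjusted p = 0.0487), with 30.5, 32.9, 28.9 and 29.5 CPM in BOM tumors and 24.7, 28.9, 21.2, 20.9 and 20.4 CPM in vehicle tumors. For the first pair of these clustered genes the groups did not overlap (6.85% of all genes upward, 9.45% downward), and for Pcdhb5 the lowest BOM tumor and the highest vehicle tumor were about equal.

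Pcdh7 and Pcdh8 were not called against all 5 vehicle tumors. Pcdh7 was at 21.3, 24.6, 15.3 and 17.9 CPM in BOM tumors and 17.0, 17.6, 8.30, 7.78 and 8.92 CPM in vehicle tumors (0.69, adjusted p = 0.0548). Pcdh8 was at 4.82, 6.24, 4.16 and 4.42 CPM in BOM tumors and 3.74, 3.80, 1.24, 0.762 and 1.78 CPM in vehicle tumors (1.01, adjusted p = 0.0847). In both genes vehicle tumors 1 and 2 were nearest to the BOM tumors, so leaving them out widens the difference. Without those 2 tumors 11 members were called, 9 higher and 2 lower, where 23.3% of all genes were called. Among non-clustered genes these were Pcdh18 at 2.29 (adjusted p = 4.19e-07), Pcdh8 at 1.93 (0.00175), Pcdh7 at 1.24 (0.00014), Pcdh1 at 0.49 (0.00416), Pcdh19 at -1.24 (4.42e-05) and Pcdh10 at -0.42 (0.00489). The clustered ones were Pcdhgb1 at 1.66, Pcdhb21 at 0.95, Pcdhb14 at 0.92, Pcdhb16 at 0.80 and Pcdhb5 at 0.55. Pcdh19 and Pcdhgb1 were called under every alternative. With the spread estimated from these groups alone, 2 members were called, and leaving out 1 tumor gave 3 to 9. Pcdh1, Pcdhb5 and Pcdhb21 were all lost without vehicle tumor 3, 4 or 5 or BOM tumor 2. Of 27 alternatives, Pcdhb21 lost its call in 13, Pcdhb5 in 12 and Pcdh1 in 5. For Pcdhb21 and Pcdhb5 these included leaving out any single BOM tumor.

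With BOM plus anti-PD1 compared with anti-PD1, 11 of 40 members were called, 9 higher and 2 lower, where 15.8% of all genes rose, 16.6% fell and 32.4% were called. Non-clustered genes again moved in both directions, and 7 of the 8 tested were called. Pcdh8, Pcdh18, Pcdh7, Pcdh1 and Pcdh17 rose and Pcdh19 and Pcdh10 fell, each in the direction it had at 10 d. As shares, the 5 that rose in both comparisons were 62.5% of the members that rose at 10 d and 55.6% of those that rose in these tumors, and the 2 that fell in both were 20% of those that fell at 10 d and 100% of those in tumors. The matching shares over all genes were not computed.

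Pcdh19 was at 46.3, 59.8, 36.5 and 70.9 CPM in BOM plus anti-PD1 tumors and 119, 125, 112, 114 and 118 CPM in anti-PD1 tumors (log2 fold change -1.14, adjusted p = 0.000189). The anti-PD1 tumors lay within a narrow range above all 4 BOM plus anti-PD1 tumors. Pcdh8 was at 5.05, 7.79, 4.23 and 5.50 CPM in BOM plus anti-PD1 tumors and 0.965, 1.05, 1.60, 0.291 and 1.41 CPM in anti-PD1 tumors (2.41, adjusted p = 0.000499). Pcdh18 was at 12.9, 12.0, 10.5 and 12.3 CPM in BOM plus anti-PD1 tumors and 3.06, 2.62, 3.74, 2.33 and 3.66 CPM in anti-PD1 tumors (1.95, adjusted p = 0.000368). Pcdh7 was at 20.5, 21.2, 15.6 and 24.7 CPM in BOM plus anti-PD1 tumors and 9.65, 7.86, 6.95, 6.56 and 7.17 CPM in anti-PD1 tumors (1.42, adjusted p = 0.000369). For these genes the groups did not overlap (12.1% of all genes upward, 12% downward).

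Pcdh1 rose by 0.63 on the log2 scale (adjusted p = 0.000326), at 60.8, 59.7, 50.2 and 62.2 CPM in BOM plus anti-PD1 tumors and 38.0, 36.7, 38.8, 42.0 and 32.8 CPM in anti-PD1 tumors. Pcdhgb1 was at 7.86, 5.27, 6.02 and 5.65 CPM in BOM plus anti-PD1 tumors and 2.09, 3.49, 3.38, 1.60 and 1.83 CPM in anti-PD1 tumors (1.33, adjusted p = 0.00238). Pcdhb14 was at 6.03, 6.11, 6.53 and 4.52 CPM in BOM plus anti-PD1 tumors and 1.77, 4.19, 1.78, 2.62 and 2.25 CPM in anti-PD1 tumors (1.20, adjusted p = 0.00331). All 3 separated the groups. Pcdhb5 was at 27.8, 33.2, 22.2 and 34.9 CPM in BOM plus anti-PD1 tumors and 18.8, 20.4, 19.2, 20 and 22.4 CPM in anti-PD1 tumors (0.55, adjusted p = 0.00332), with 1 pair of tumors at nearly equal levels. Pcdh17 (0.39, adjusted p = 0.032), Pcdhgc3 (0.51, adjusted p = 0.0464) and Pcdh10 (-0.36, adjusted p = 0.0165) were called too. Of 27 alternatives, Pcdhgc3 lost its call in 16, Pcdh17 in 5 and Pcdh10 in 2. The other 8 members were called under each alternative. Pcdhgc3 was called in the opposite direction at 10 d, where it fell with BOM (-0.39, adjusted p = 0.0159). The 5 alpha genes tested were all below 0, with a median of -0.46, and 0 passed the test (2 at an unadjusted p under 0.05).

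Markers of other cells differed between tumors. Of the 14 neuroendocrine genes, 2 rose and 10 fell with BOM against vehicle, with and without vehicle tumors 1 and 2. That is 85.7%, against 14.5% of all genes with these tumors and 23.3% without them. With BOM plus anti-PD1 against anti-PD1, 8 of the neuroendocrine genes fell (57.1%, against 32.4% of all genes called). Their summed level was 2820 to 3440 CPM in BOM plus anti-PD1, 3430 to 3830 in anti-PD1, 3010 to 3510 in BOM and 3230 to 3900 in vehicle tumors. The 8 endothelial genes summed to 180 to 227 CPM in BOM plus anti-PD1, 239 to 301 in anti-PD1, 163 to 242 in BOM and 231 to 258 in vehicle tumors. The 9 fibroblast genes summed to 349 to 629 CPM in BOM plus anti-PD1, 261 to 2080 in anti-PD1, 468 to 1790 in BOM and 574 to 1290 in vehicle tumors. The 9 immune genes summed to 309 to 778 CPM in BOM plus anti-PD1, 132 to 674 in anti-PD1, 254 to 710 in BOM and 310 to 812 in vehicle tumors. Muscle genes reached 936 CPM in a BOM tumor. Pcdh12, a protocadherin of endothelial cells, was at 1.20, 1.47, 3.09 and 1.01 CPM in BOM tumors and 1.72, 2.35, 1.94, 1.83 and 1.92 CPM in vehicle tumors. The part of these cells in the protocadherin differences was not tested.

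**Figure D3:**
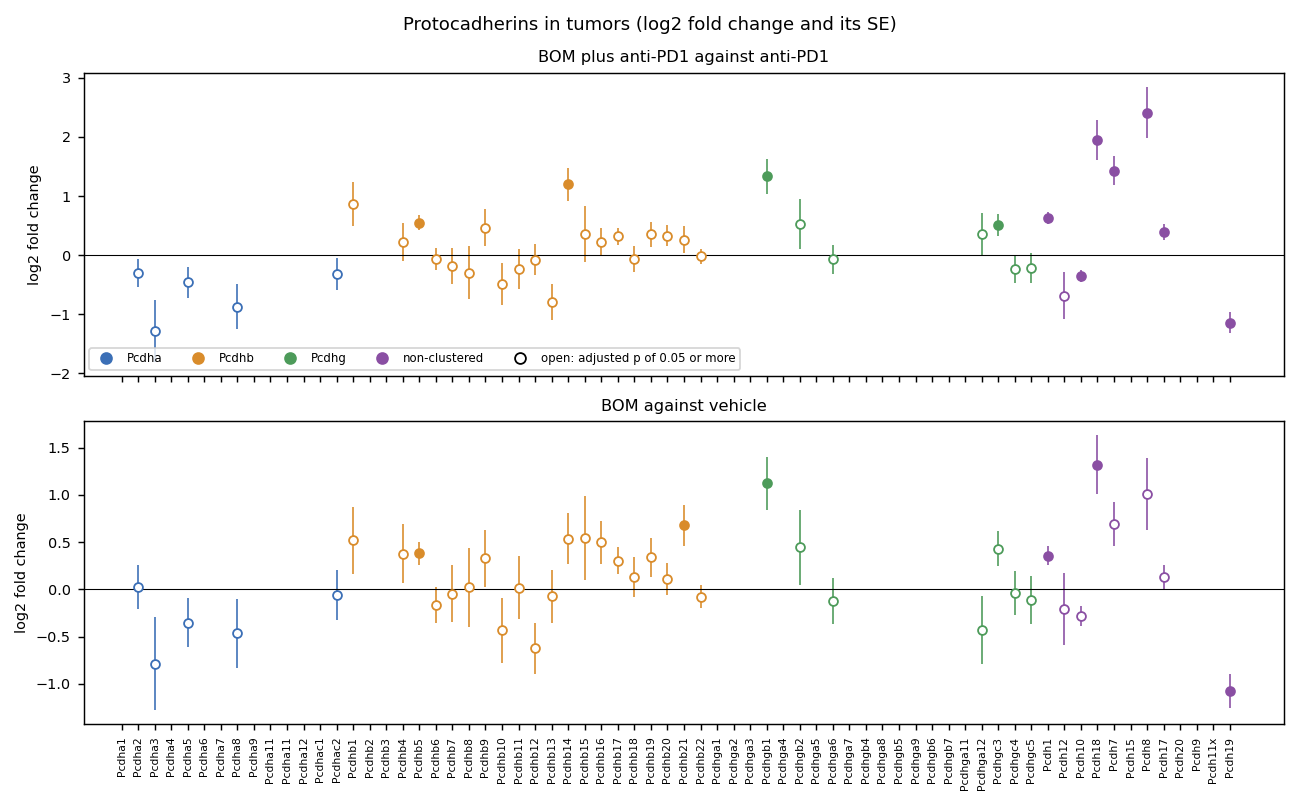
Log2 fold change with its SE (vertical axis) of every protocadherin tested in tumors, BOM plus anti-PD1 over anti-PD1 in the upper panel and BOM over vehicle in the lower one; filled points passed the test. Pcdh8 lies highest with anti-PD1, at 2.41, and Pcdh19 is below 0 in both panels, at -1.14 with anti-PD1 and -1.08 without.

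Anti-PD1 compared with vehicle called 0 members by edgeR and 0 by DESeq2, with 4 at an unadjusted p under 0.05 and 0% of all genes called. BOM plus anti-PD1 compared with BOM called 0 members by either tool, with 2 at an unadjusted p under 0.05 and 0.00698% of all genes called. The interaction of BOM and anti-PD1 called 0 members by either tool, with 2 at an unadjusted p under 0.05 and 0% of all genes called. BOM plus anti-PD1 compared with vehicle, which uses the same vehicle tumors as above, called 7 members, where 10.7% of all genes were called (4.94% higher, 5.8% lower). Pcdh8 rose by 1.21 (adjusted p just under the threshold of 0.05), Pcdh18 by 1.18, Pcdhgb1 by 0.96, Pcdh7 by 0.74 and Pcdh1 by 0.37, and Pcdh19 fell by 0.90 and Pcdh10 by 0.37 on the log2 scale. None of the 7 was called under every alternative, and leaving out 1 tumor gave 1 to 9 calls. Without vehicle tumors 1 and 2 there were 9, where 22.7% of all genes were called: Pcdh18 at 2.15, Pcdh8 at 2.13, Pcdhgb1 at 1.49, Pcdh7 at 1.29, Pcdhb14 at 1.16, Pcdh1 at 0.50 and Pcdhb5 at 0.50 were higher, and Pcdh19 at -1.07 and Pcdh10 at -0.51 lower. Anti-PD1 against vehicle and the interaction called 0 members without them too.

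At 96 h the same question was put to 3 lines with 1 library of each treatment per line, and the line was a term in the fit. No member was called: 0 of 51 tested passed by edgeR and 0 by DESeq2, with 6 at an unadjusted p under 0.05, where 0% of all 13333 genes were called. The fold changes nevertheless lay on 1 side, with 49 of 51 above 0 and a median of 0.305, against 6451 of 13333 genes above 0 and a median of -0.00844 over all genes. By family, all 8 alpha genes, all 22 beta genes, 11 of 12 gamma genes and 8 of 9 non-clustered genes were above 0. The lowest p belonged to Pcdh8, at 0.78 ± 0.21 (SE; adjusted p = 0.479).

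The lines did not share this shift. With BOM, 46 of 51 members (90.2%) were higher in RP-48, with a median of 0.341, and 48 (94.1%) in G8545, with a median of 0.535. In RP-116, 20 members (39.2%) were higher, with a median of -0.142. Over all genes 49.8%, 49.9% and 47.4% were above 0 in RP-48, G8545 and RP-116. Higher in all 3 lines were 19 members (37.3%), where 12.1% of all genes were, and 0 members were lower in all 3, where 13.1% of all genes were. They were 5 alpha, 6 beta, 3 gamma and 5 non-clustered genes, the last being Pcdh10, Pcdh15, Pcdh18, Pcdh7 and Pcdh8. With 1 library per treatment in a line, the difference between lines has no replicate check, and alpha and gamma genes share exons within their clusters, so those are not independent of each other. Of the 19, 7 had under 10 counts in both libraries of at least 1 line, Pcdh18 and Pcdh15 among them.

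Pcdh8 was at 26.9 CPM with BOM and 13.6 CPM with DMSO in RP-48, 36.5 CPM with BOM and 18.4 CPM with DMSO in G8545, and 10.5 CPM with BOM and 8.51 CPM with DMSO in RP-116. Pcdh18 was at 11 CPM with BOM and 7.09 CPM with DMSO in RP-48 and at 53.0 CPM with BOM and 32.8 CPM with DMSO in G8545. The RP-116 libraries held 4 counts of it with BOM and 3 with DMSO, too few for a direction. Pcdh7 was at 46.7 CPM with BOM and 33 CPM with DMSO in RP-48, 18.4 CPM with BOM and 15.6 CPM with DMSO in G8545, and 19.4 CPM with BOM and 14.1 CPM with DMSO in RP-116. Pcdh8 and Pcdh7 were thus higher with BOM in each line and Pcdh18 in RP-48 and G8545, without passing the test. Pcdh19, which fell at 10 d, was at 59.2 CPM with BOM and 66.4 CPM with DMSO in RP-48. In G8545 it was at 62.1 CPM with BOM and 57.1 CPM with DMSO, so these lines lay on both sides of 0. Pcdh10, which also fell at 10 d, was higher with BOM by 0.38 in RP-116, 0.32 in RP-48 and 0.46 in G8545 on the log2 scale. All 8 alpha genes tested were above 0 in the fit at 96 h, whereas 12 of 13 were below 0 at 10 d. Line, time and RNA selection differ between the 96 h and the 10 d table, and the tables were not tested against each other.

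**Figure D4:**
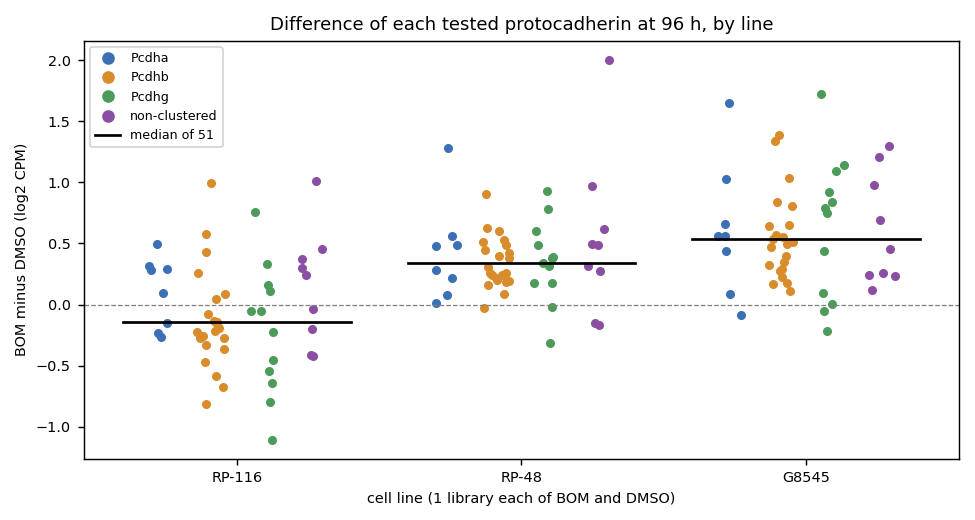
Difference of BOM minus DMSO in log2 CPM (vertical axis) of each of the 51 protocadherins tested at 96 h, for the lines RP-116, RP-48 and G8545, with 1 library per treatment. Points are genes, and most lie above 0 in RP-48 and G8545, with medians of 0.341 and 0.535, but not in RP-116, with a median of -0.142.

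A test of any difference between lines, with treatment as a term, called 31 of 57 members, where 45.1% of all genes were called: 10 of 10 non-clustered genes and 21 of 47 clustered genes. DESeq2 called 24. Leaving out 1 library gave 23 to 36.

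RP-116 was nearly without several delta protocadherins. Pcdh19 had 4 counts in each RP-116 library (0.468 CPM with BOM, 0.486 CPM with DMSO), against 588 counts with BOM and 609 with DMSO in RP-48 and 650 with BOM and 598 with DMSO in G8545 (adjusted p for line = 6.19e-06). Pcdh17 was at 0.819 CPM with BOM and 0.972 CPM with DMSO in RP-116, 66.5 CPM with BOM and 54.9 CPM with DMSO in RP-48, and 60.3 CPM with BOM and 24.5 CPM with DMSO in G8545 (adjusted p = 4.41e-05). Pcdh18 was at 0.468 CPM with BOM and 0.365 CPM with DMSO in RP-116, at most a few counts. Pcdh10 was at 27 CPM with BOM and 20.8 CPM with DMSO in RP-116, 254 CPM with BOM and 204 CPM with DMSO in RP-48, and 351 CPM with BOM and 256 CPM with DMSO in G8545 (adjusted p = 6.54e-06). Pcdh9 had the opposite order, at 36.7 CPM with BOM and 49.2 CPM with DMSO in RP-116, 3.52 CPM with BOM and 3.92 CPM with DMSO in RP-48, and 9.08 CPM with BOM and 3.82 CPM with DMSO in G8545 (adjusted p = 0.000326). Pcdh1 differed less, at 48.6 CPM with BOM and 64.9 CPM with DMSO in RP-116, 118 CPM with BOM and 83.8 CPM with DMSO in RP-48, and 62.9 CPM with BOM and 53.4 CPM with DMSO in G8545.

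Single clustered genes were high in 1 line and low in others. Pcdha1 was at 20.8 CPM with BOM and 15.4 CPM with DMSO in G8545, against 1.52 CPM with BOM and 1.22 CPM with DMSO in RP-116 and 0.302 CPM with BOM and 0 CPM with DMSO in RP-48 (adjusted p = 8.26e-05). Pcdhb2 was at 20.1 CPM with BOM and 17.2 CPM with DMSO in G8545, 0.819 CPM with BOM and 1.22 CPM with DMSO in RP-116, and 1.61 CPM with BOM and 0.763 CPM with DMSO in RP-48 (adjusted p = 0.000106). Pcdhga6 was instead high in RP-48, at 10.7 CPM with BOM and 10.8 CPM with DMSO, against 1.62 CPM with BOM and 1.15 CPM with DMSO in G8545 and 0 CPM with BOM and 0.243 CPM with DMSO in RP-116 (adjusted p = 0.000303). Pcdha8 was highest in RP-48 too, at 10.9 CPM with BOM and 7.30 CPM with DMSO, against 4.21 CPM with BOM and 5.10 CPM with DMSO in RP-116 and 0.573 CPM with BOM and 0.287 CPM with DMSO in G8545. In each case the libraries of the highest line were above all libraries of the other lines, with BOM as with DMSO. Pcdhb9 was at 50.3 CPM with BOM and 34.7 CPM with DMSO in G8545, 11 CPM with BOM and 7.63 CPM with DMSO in RP-48, and 2.46 CPM with BOM and 1.58 CPM with DMSO in RP-116 (adjusted p = 2.24e-05). Pcdhb5 was at 47.4 CPM with BOM and 44.0 CPM with DMSO in G8545, 36.0 CPM with BOM and 27.3 CPM with DMSO in RP-48, and 6.79 CPM with BOM and 4.98 CPM with DMSO in RP-116 (adjusted p = 8.81e-05).

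**Figure D5:**
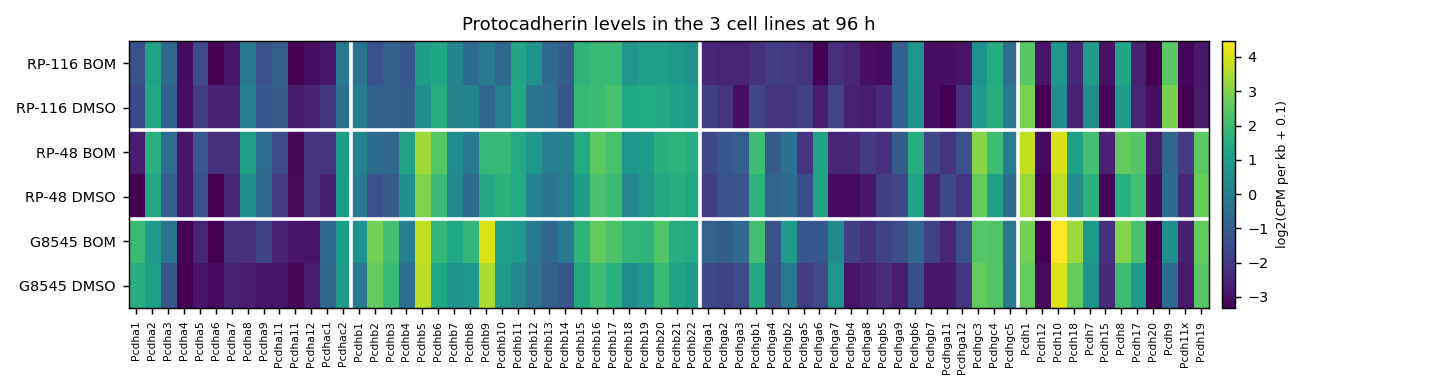
Level of every protocadherin (log2 of CPM per kilobase, colour scale) in the BOM and DMSO library of each line at 96 h, grouped by family. Pcdh19, Pcdh18 and Pcdh17 are close to the bottom of the scale in RP-116, and Pcdha1 and Pcdhb2 are high in G8545 alone among the 3 lines.

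Of 29 genes listed as candidate regulators of the clustered locus, 1 rose and 3 fell with BOM at 10 d (13.8% called, against 20.3% of all genes), with a median log2 fold change of -0.0845. Their action at the locus in these cells was not tested. The riser was Rest, a repressor of neuronal genes that recruits LSD1, at 30.4 and 27.5 CPM with BOM and 2.64, 5.70 and 4.74 CPM with DMSO (2.75, adjusted p = 7.37e-07). Tet2, a methylcytosine oxidase, fell by 0.38, Wiz, a zinc finger partner of G9a, by 0.42 and Kdm1a by 0.28 on the log2 scale. In tumors Rest was at 46.3, 37.7, 38.7 and 42.4 CPM with BOM and 30.6, 20.4, 6.18, 5.18 and 3.43 CPM with vehicle (1.54, and 3.08 without vehicle tumors 1 and 2, which were again nearest to the BOM tumors). It was at 34.2 to 42.3 CPM with BOM plus anti-PD1 and 3.21 to 5.52 CPM with anti-PD1 (3.14, adjusted p = 0.000157). Ctcf and the cohesin genes Rad21, Smc1a and Smc3 were not called at 10 d (adjusted p 0.163 to 0.798). With BOM against vehicle 3 of the 29 rose (Rest, Rcor1 by 0.23, Atf7ip by 0.25) and Kdm1a fell by 0.23, which is 13.8% against 14.5% of all genes. Without vehicle tumors 1 and 2, 4 were called again (13.8%, against 23.3% of all genes). Rcor1 was then not called (adjusted p = 0.063) and Tet1, another methylcytosine oxidase, was (0.53). With anti-PD1 3 rose and 6 fell (31%, against 32.4% of all genes), and with IFNg at 10 d 2 rose and 6 fell (27.6%, against 23.1%).

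Of 12 classic cadherins tested at 10 d, 2 rose and 5 fell with BOM (58.3% called, against 20.3% of all genes), with a median of -0.254. Cdh11, a type II cadherin of mesenchymal and neural cells, was at 17.3 and 22.4 CPM with BOM and 71.4, 73.2 and 71.8 CPM with DMSO (log2 fold change -1.86). Cdh20 (-0.69) and Cdh2, the neural cadherin (-0.53), fell too, and Cdh4, the retinal cadherin, rose (0.79). Of 18 other atypical cadherins tested, 4 rose and 2 fell (33.3%, median -0.227), among them the giant cadherins Fat1 (1.47), Fat4 (1.52) and Fat2 (2.67) and the flamingo-type Celsr2 (-0.45). In tumors with BOM against vehicle, 1 of 11 classic cadherins rose (Cdh20, 0.51) and 1 fell (Cdh6, -1.68), and 3 of 13 atypical ones rose and 4 fell (Celsr1 0.76, Clstn3 -2.25, Cdhr1 -1.44, Ret -2.43), that is 18.2% and 53.8% against 14.5% of all genes. Without vehicle tumors 1 and 2 the counts were 1 higher and 1 lower of 11 classic cadherins and 3 higher and 5 lower of 14 atypical ones. That is 18.2% and 57.1%, against 23.3% of all genes. Of 25 genes for partners of protocadherin tails, 3 rose and 1 fell at 10 d (16%, against 20.3% of all genes), with a median of 0.0817. Fez1, a transport adaptor, was at 48.6 and 55.6 CPM with BOM and 27.6, 25.3 and 23.0 CPM with DMSO (log2 fold change 1.04). Adam10, a sheddase that cleaves protocadherins, rose by 0.45 and the WAVE-complex gene Nckap1 by 0.31, and Ptk2, which encodes the focal adhesion kinase bound by alpha and gamma tails, fell by 0.31. In BOM tumors against vehicle Fez1 (0.77) and Wasf2 (0.22) rose and Ctnna2 (-1.22) fell (12%, against 14.5% of all genes); without vehicle tumors 1 and 2, 4 rose and 1 fell (20%, against 23.3%). At 96 h edgeR called 0 genes of each list with BOM, with 1 candidate regulator, 2 classic cadherins, 5 atypical cadherins and 1 partner at an unadjusted p under 0.05.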

How the data were processed

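The authors counted reads per gene, and the 3 deposited tables hold raw counts for 34 libraries; per the submitters' processing notes the tools were bcl2fastq, FastQC 0.11.9, STAR 2.7 and featureCounts of Subread 2.0, on mm10. The RNA of the 10 d cultures was total RNA and the rest polyA RNA, per the labels; libraries were made with a NEBNext Ultra kit that does not mark strand, so overlapping and antisense genes are uncertain. From the counts, edgeR 4.0.16 (R 4.3.3, limma 3.58.1; TMM scaling, filterByExpr, quasi-likelihood test) was fitted across all genes of a table, with p-values adjusted over all genes tested (Benjamini-Hochberg, threshold 0.05). The 96 h fit had drug and cell line as terms, and the 10 d and tumor fits had 1 mean per group. Fold changes are log2, bomedemstat over its control. The code was tested on simulated data. DESeq2 1.42.0, other scalings, filters and fits, and leaving out each library were alternatives; figures used matplotlib 3.10.9.

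The members and the gene lists were chosen with earlier results of these data known. Named were called members, up to 8 per main comparison and 4 per other one by lowest p, the 5 highest clustered and non-clustered members per kilobase in each table, given by their ranges where not called, and up to 4 called genes of each list. A few further members were named after their values were seen. At 10 d, libraries with the same replicate number in DMSO with IFNg and DMSO deviated together (r = 0.393, 0.119 and 0.133 over genes). DMSO replicate 3 also deviated together with replicate 2 of DMSO with IFNg (r = 0.177). Replicate 1 alone stood out, so pairing by number is not settled for replicates 2 and 3. In tumors the numbers did not pair the samples. No 2 libraries agreed within sampling noise.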

Additional observations from a re-analysis of the deposited data

Results flagged for a closer look

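In groups of 4 or 5 tumors, 76 levels were searched for a sample far from the others, and 2 were found. These were levels of called members, of the members highest per kilobase in tumors and of family sums. Chance alone gives about 1 in 20 groups. Pcdh10 was at 70.3 CPM in BOM plus anti-PD1 tumor 1, where the nearest of the other 3 tumors had 58.3 CPM, so the gap was 0.909 of the group's range, above Dixon's critical value. The summed beta genes were at 101 CPM in anti-PD1 tumor 1, where the nearest of the other anti-PD1 tumors had 112 CPM (0.733 of the range, again above the critical value). At 96 h the median difference of the 51 tested protocadherins was -0.142 on the log2 scale in RP-116, and 0.341 in RP-48 and 0.535 in G8545, on opposite sides of 0. That difference between lines was not tested, since each line has 1 library per treatment.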

How the results depend on the processing

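Counts of protocadherins called stayed within 1.5 times the reported count in all alternatives except the following. Leaving out 1 library gave 11 to 20 for BOM against DMSO at 10 d, 0 to 1 for IFNg in DMSO cultures, 0 to 1 for IFNg in BOM cultures, 3 to 9 for BOM against vehicle and 1 to 9 for BOM plus anti-PD1 against vehicle. Without the filter on low counts there was 1 for IFNg in DMSO cultures, 1 for the BOM by IFNg interaction and 3 for BOM plus anti-PD1 against vehicle. With the spread taken from the compared groups alone there were 2 for BOM against vehicle and 0 for BOM plus anti-PD1 against vehicle. Without vehicle tumors 1 and 2, chosen after seeing the data, there were 11 for BOM against vehicle. The cause of these changes was not tested.

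With a block on the replicate number 1 member was called for IFNg in DMSO cultures, and in the other comparisons the counts stayed within 1.5 times. The block ended the calls of Pcdhgc4 for BOM against DMSO with IFNg (adjusted p = 0.0602), of Pcdhb21 for BOM against vehicle, of Pcdh17 and Pcdhgc3 for BOM plus anti-PD1 against anti-PD1 and of Pcdh10 and Pcdhgb1 for BOM plus anti-PD1 against vehicle, and it added calls of Pcdhb14 for BOM against DMSO with IFNg and of Pcdh7 for BOM against vehicle. In tumors the samples share only a number. Of 55 calls of single members, 25 held in every alternative run for them, and of 1175 alternative values 1016 kept the call, 159 lost it and 0 reversed. At the lower depths (5638353 counts in vehicle tumor 3) members at a few counts, such as 9 of the 14 alpha genes in tumors, were not tested.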
